A study of Mus musculus with 6 samples.

Results

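Kinesins are motor proteins that burn ATP to move along microtubules or to take microtubule ends apart. The genes described here are the 38 rows of the deposited table whose symbol is Kif followed by a number and at most 1 letter, out of 38715 genes. By known role 13 were put in a spindle class (chromosome movement, spindle assembly and cytokinesis), 15 in a transport class (cargo along cytoplasmic and ciliary microtubules), 6 in a cilium class (motile or sensory cilia and flagella) and 3 in none of these. Kif19b, a low-level member that was in no list, is the remaining row. Minus-end motors such as Kifc1 and the centromere motor Cenpe carry other symbols and were outside the rule.

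The values came from RNA-seq of whole mouse testis, with 3 libraries titled Middle and 3 titled Control. The series compares MES exposure with a control; Middle is the single title beside Control, so its libraries were taken as exposed. The sources used here do not give strain, age, genotype, dose, exposure time or whether each library is 1 animal, so the spread that p-values measure is between libraries and may be technical. Reads summed over genes came to 46649138 to 56435498 in Middle and 38820385 to 58389391 in Control. Levels are RPKM, which divide reads by gene length and library size, so they can be compared between genes. In whole tissue, fewer cells of a type and less RNA per cell cannot be told apart.

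In the testis, dividing spermatogonia and spermatocytes build mitotic and meiotic spindles, and haploid spermatids build a flagellum and the manchette, a skirt of microtubules around the nucleus. Spindle kinesins slide, cross-link or shorten microtubules during division. Transport kinesins carry vesicles, organelles, protein complexes and ciliary building blocks towards microtubule plus ends. The defining markers of the testis were present. The 10 elongating spermatid markers summed to 27998 to 30326 RPKM in Middle and 29787 to 33017 in Control, and the 12 spermatocyte markers to 799 to 917 in Middle and 899.7 to 915 in Control. Epididymis markers, 5 of 7 in the table, summed to 1.52 to 2.45 RPKM in Middle and 1.63 to 1.95 in Control, and Adam7, Crisp1 and Defb37 held under 6 reads in every library.

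Promoters of spindle and transport kinesins differed in the motifs they hold. RefSeq start sites on build GRCm38.p6 gave 300-base windows, 250 bases before the start and 50 after, for 30 of the 38 genes, with the first listed window used for each. The cell cycle homology region (CHR), searched as TTTGAA on both strands, is bound by the complexes that restrict transcription to G2 and M phase. It was found in 9 of 12 spindle windows (75%), in 0 of 11 transport windows, in 1 of 5 cilium windows (20%, Kif27) and in 18.1% of the 27025 windows of all genes. The median GC content of the windows was 60.2% for spindle kinesins, 69.3% for transport kinesins and 52.7% for all genes, so base composition also differed between the classes.

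The other 3 motifs differed less or were rare. CCAAT, the box bound by NF-Y, was in 7 of 12 spindle windows, 3 of 11 transport windows and 37.9% of all windows. GGGCGG, the GC box of Sp factors, was in 7 of 12 spindle windows, 9 of 11 transport windows and 35.9% of all windows. The full cAMP response element TGACGTCA, the site of CREM in spermatids and CREB elsewhere, was in 1 spindle window (Kif18a), 2 transport windows (Kif17 and Kif5c) and 1.88% of all windows. Matches that overlap were all counted, and none of the 4 motifs contains another. A match is a description of letters in the window, not a site shown to be bound.

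**Figure D1:**
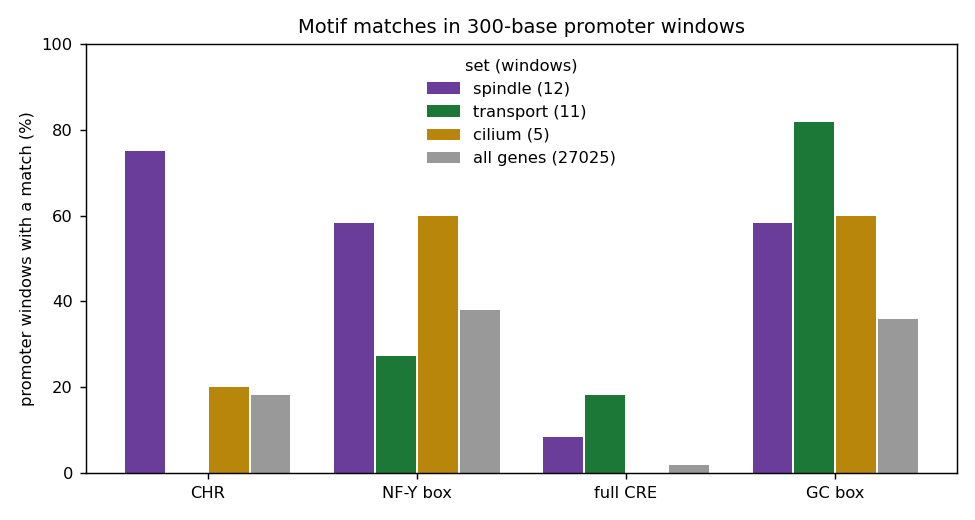
Share of 300-base promoter windows (y axis, percent) that hold each of 4 motifs (x axis; the NF-Y box is the motif with 37.9% of all windows) for spindle, transport and cilium kinesins and for all genes, with the number of windows in the legend. The CHR bar stands at 75% for spindle kinesins and at 0 for transport kinesins, against 18.1% for all genes.

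Windows are printed for 6 members to show where the motifs lie. Kif2b and Kif2c are the spindle members lower in Middle at the highest levels. Kif22 and Kif18b are the spindle members with the largest positive differences. Kif11 is a spindle motor with CHR and CCAAT matches shortly before the start, as in Kif22, and Kif17 is the more abundant of the pair of transport kinesins with a full cAMP response element. Sequences run 5′ to 3′ on the gene's strand, and capitals mark matches to the 4 motifs on either strand. The windows are Kif2b at chr11:91577506-91577805 (minus strand), Kif2c at chr4:117178723-117179022 (minus), Kif22 at chr7:127042371-127042670 (minus), Kif18b at chr11:102925075-102925374 (minus), Kif11 at chr19:37376132-37376431 (plus) and Kif17 at chr4:138262001-138262300 (plus), all GRCm38.p6.
Kif2b: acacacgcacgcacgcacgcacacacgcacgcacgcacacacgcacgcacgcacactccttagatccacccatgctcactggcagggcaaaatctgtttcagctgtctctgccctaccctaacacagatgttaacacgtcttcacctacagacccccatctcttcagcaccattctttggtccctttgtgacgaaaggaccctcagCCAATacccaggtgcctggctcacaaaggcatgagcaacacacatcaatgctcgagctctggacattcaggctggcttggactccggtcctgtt
Kif2c: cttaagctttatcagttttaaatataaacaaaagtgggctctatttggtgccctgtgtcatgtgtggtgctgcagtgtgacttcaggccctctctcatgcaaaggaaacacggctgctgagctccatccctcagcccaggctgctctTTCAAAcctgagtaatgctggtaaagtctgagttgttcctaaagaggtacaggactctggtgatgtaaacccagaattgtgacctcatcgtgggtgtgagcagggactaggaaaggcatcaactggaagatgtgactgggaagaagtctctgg
Kif22: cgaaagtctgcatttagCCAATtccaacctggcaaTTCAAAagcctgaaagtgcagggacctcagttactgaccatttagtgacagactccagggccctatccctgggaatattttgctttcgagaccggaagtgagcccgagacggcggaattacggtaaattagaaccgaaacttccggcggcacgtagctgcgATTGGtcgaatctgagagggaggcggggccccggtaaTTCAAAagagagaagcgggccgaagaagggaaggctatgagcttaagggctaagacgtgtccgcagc
Kif18b: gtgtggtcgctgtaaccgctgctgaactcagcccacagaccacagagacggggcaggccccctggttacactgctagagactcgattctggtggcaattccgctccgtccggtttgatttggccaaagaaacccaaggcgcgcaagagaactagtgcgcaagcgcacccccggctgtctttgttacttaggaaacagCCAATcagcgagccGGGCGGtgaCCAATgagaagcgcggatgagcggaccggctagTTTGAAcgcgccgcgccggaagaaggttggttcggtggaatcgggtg
Kif11: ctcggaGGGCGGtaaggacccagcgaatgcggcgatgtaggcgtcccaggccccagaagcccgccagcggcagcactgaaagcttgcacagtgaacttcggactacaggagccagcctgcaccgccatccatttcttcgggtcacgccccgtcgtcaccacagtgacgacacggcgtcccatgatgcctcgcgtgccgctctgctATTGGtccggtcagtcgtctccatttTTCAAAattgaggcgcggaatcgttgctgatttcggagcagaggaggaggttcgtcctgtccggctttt
Kif17: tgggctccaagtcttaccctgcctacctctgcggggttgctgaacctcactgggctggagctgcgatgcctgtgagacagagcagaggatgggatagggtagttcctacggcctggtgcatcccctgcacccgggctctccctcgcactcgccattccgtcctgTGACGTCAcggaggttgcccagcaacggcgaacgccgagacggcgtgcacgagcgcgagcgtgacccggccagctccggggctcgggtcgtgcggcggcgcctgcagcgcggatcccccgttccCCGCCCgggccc

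In the Kif11 window a CHR match began 19 bases and a CCAAT match 45 bases before the start. In the Kif22 window the nearest CHR and CCAAT matches began 17 and 54 bases before the start, and in that of Kif18b a CHR match began at base 4 of the transcript. The Kif2b window held a CCAAT match 44 bases before the start and no CHR match. Kif2c had its CHR match 103 bases before the start, and Kif17 its response element 86 bases before the start.

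A few kinesin genes held most of the family's signal. Together the 38 genes took 0.424% to 0.468% of all reads in Middle and 0.464% to 0.478% in Control. The 4 most abundant were Kif2b, Kif17, Kif9 and Kif27, which made up 66.3% to 67.6% of the family's summed RPKM in Middle and 67.1% to 67.6% in Control. These 4 had means over all libraries of at least 100 RPKM, another 7 lay between 10 and 100, 19 between 1 and 10, and 8 under 1. Each of the 3 main classes had a member in the first band. The median member of the spindle class stood at 7.40 ± 0.37 RPKM in Middle and 7.24 ± 0.63 in Control, and that of the transport class at 3.11 ± 0.10 in Middle and 2.96 ± 0.23 in Control (SD, n = 3 each).

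**Figure D2:**
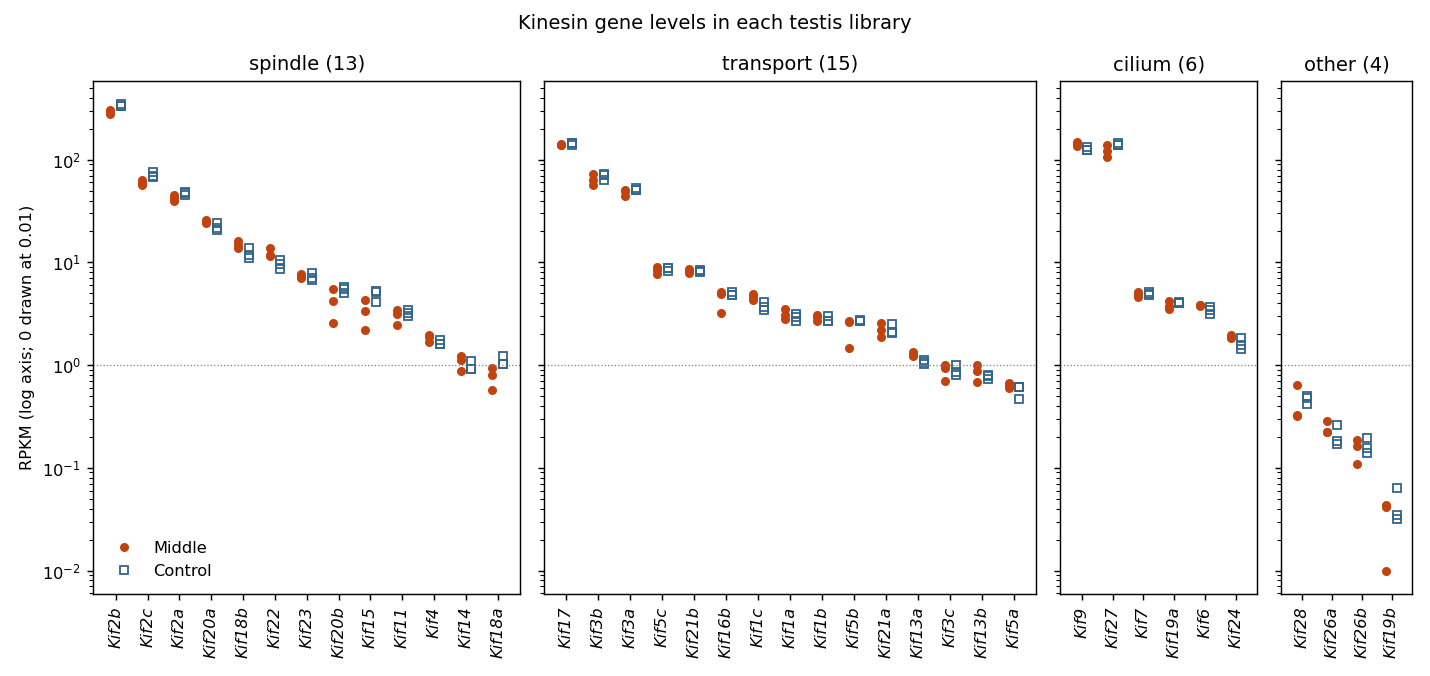
RPKM on a log axis for all 38 kinesin genes in 4 panels by class, ordered by mean level, with each filled circle a Middle library and each open square a Control library; the dotted line is 1 RPKM. Kif2b stands alone at the top with 278 to 302 RPKM in Middle and 331 to 346 in Control, and Kif19b at the bottom.

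No kinesin differed significantly between Middle and Control. Of the 31 members that reached a mean of 1 RPKM in at least 1 group, 0 had an adjusted p under 0.05 (limma-trend on log2(RPKM + 1), Benjamini-Hochberg over 15040 genes), where 8 genes or 0.0532% of all tested genes did. The smallest adjusted p of a kinesin was 0.178. The direction was split, with 14 members above 0 and 17 below, a median log2 fold change of -0.024 and a median over all tested genes of 0.027. An unadjusted p under 0.05 was reached by 8 members (25.8%), where 20.7% of all tested genes reached it. Of these 4 were higher in Middle, beside 11.7% of all tested genes, and 4 lower, beside 9.02%. Middle and Control values were fully apart for 11 members (35.5%), beside 29.3% of all tested genes. Of these 6 were higher in Middle, beside 17.9%, and 5 lower, beside 11.4%. Kif18a, among the lower members in both counts, passed the filter only through Control, the group where it was higher. Limma-voom on the recovered reads also called 0 of 37 kinesins, beside 0.109% of 23889 genes, with 11 at an unadjusted p under 0.05, beside 17.1%.

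Both spindle and transport kinesins had members above and below 0. All 13 spindle members were tested, with log2 fold changes of -0.46 to 0.32 (SD over members 0.24), 6 above 0 and 7 below. Of the 15 transport members 12 were tested, with fold changes of -0.22 to 0.23 (SD over members 0.12), 5 above 0 and 7 below. The SD over all tested genes was 0.19. Fold changes of low genes depend on the pseudocount: with 0.1 in place of 1, Kif5b was at -0.31, Kif1c at 0.28 and Kif13a at 0.24. The medians were -0.088 for spindle and -0.016 for transport kinesins. An unadjusted p under 0.05 was reached by 6 of 13 spindle members, 1 of 12 transport members and 1 of 6 cilium members, each beside the 20.7% of all tested genes. The spindle count includes Kif18a, which passed the filter only through Control. These counts and medians describe the lists, and the difference between the lists was not tested because members are not replicates.

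**Figure D3:**
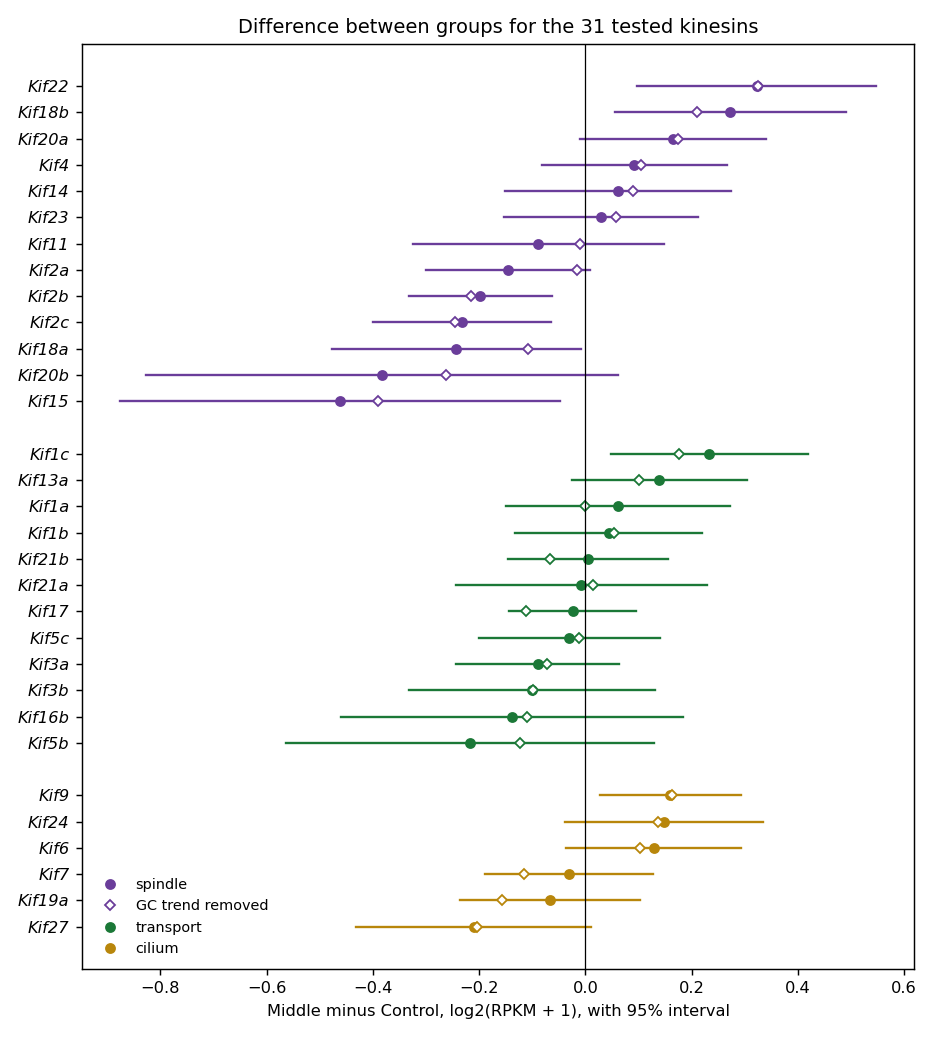
Middle minus Control on the log2(RPKM + 1) scale (x axis) for the 31 tested kinesins, grouped by class, where filled points are the fitted differences with their 95% intervals and white diamonds the differences after each library's trend on GC content was removed. Spindle members run from 0.32 for Kif22 to -0.46 for Kif15, and transport members from 0.23 for Kif1c to -0.22 for Kif5b.

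Among spindle motors, the microtubule-shortening kinesin-13 genes Kif2a, Kif2b and Kif2c were all lower in Middle without overlap of the libraries. This held for 11.4% of all tested genes. The remaining kinesin-13 gene, Kif24 of the cilium class, lay above 0 (log2 fold change 0.15) and its groups overlapped. Kif2b (chromosome 11, 91466141 to 91468384, minus strand, GRCm39, 1 exon), which acts at kinetochores in dividing cells, was the most abundant kinesin. It had 278, 299.7 and 302 RPKM in Middle replicates 1 to 3 and 346, 331 and 333 RPKM in Control replicates 1 to 3. The lowest Control library thus lay above the highest Middle library, at a mean of 293 ± 13 RPKM in Middle and 336 ± 8.26 in Control (SD, n = 3 each). The log2 fold change of -0.20 (SE 0.06, 95% interval -0.33 to -0.06) did not pass over all genes (adjusted p = 0.178, limma).

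Kif2c (chromosome 4, 117016836 to 117039836), which encodes MCAK and frees wrongly attached kinetochore microtubules, had 59.5, 63.7 and 56.8 RPKM in Middle and 76.0, 67.4 and 68.8 RPKM in Control. The groups did not overlap (log2 fold change -0.23, SE 0.07, adjusted p = 0.178, limma). Kif2a (chromosome 13, 107095504 to 107158634), which acts at spindle poles and in neurons, had 39.9, 45.5 and 42.4 RPKM in Middle and 45.8, 48.2 and 47.5 RPKM in Control. Its difference was small against the spread, with a log2 fold change of -0.15 (SE 0.07, adjusted p = 0.257, limma), and 19.2% of its exon bases are shared with Dimt1. The ratio of Kif2b to Kif2c within a library was 4.90 ± 0.36 in Middle and 4.76 ± 0.19 in Control (SD, n = 3 each), and the groups overlapped in it.

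The summed level of the spindle class followed these 3 genes. It was 450.0, 483 and 476 RPKM in Middle and 534, 519 and 516 RPKM in Control, with no overlap. Without Kif2b the sums were 172 to 183 RPKM in Middle and 183 to 188 RPKM in Control, and the groups overlapped. Without Kif2a, Kif2b and Kif2c the mean sum was the higher one in Middle, at 73.7 ± 1.25 RPKM, against 68.5 ± 3.35 in Control (SD, n = 3 each). The groups again overlapped. Some summed cell type markers also did not overlap in the same comparison. The 9 round spermatid markers summed to 737 to 817 RPKM in Middle and 853 to 892 in Control, the 10 spermatogonium markers to 43.9 to 55.5 in Middle and 37.5 to 43.8 in Control, and the 11 Sertoli cell markers to 302 to 337 in Middle and 279 to 284 in Control. The margin was narrow for the spermatogonium markers. The sums of Leydig, peritubular, macrophage, endothelial, spermatocyte and elongating spermatid markers overlapped between the groups. None of the markers of these lists was at 0 in every library, and their part in the kinesin values was not tested.

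Kif22, Kif18b and Kif20a had the largest positive fold changes of the spindle class, and none of them passed. Kif22 (chromosome 7, 126626901 to 126641643), the chromokinesin that pushes chromosome arms away from the poles, had 13.7, 11.5 and 11.7 RPKM in Middle and 8.58, 10.6 and 9.67 RPKM in Control. The groups did not overlap, and its log2 fold change of 0.32 (SE 0.10) was the largest of the family on the positive side (adjusted p = 0.178, limma). Kif18b (chromosome 11, 102796355 to 102815950), a kinesin-8 motor that works with MCAK on astral microtubules, had 16.1, 13.8 and 14.9 RPKM in Middle and 11.1, 13.7 and 11.8 RPKM in Control. The groups were apart by a narrow margin between Middle replicate 2 and Control replicate 2, and the log2 fold change was 0.27 (SE 0.09, adjusted p = 0.191, limma).

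Kif20a (chromosome 18, 34757666 to 34766330), a kinesin-6 motor of the central spindle in cytokinesis, had 25.1, 24.2 and 25.8 RPKM in Middle and 21.8, 24.4 and 20.6 RPKM in Control. Control replicate 2 reached into the Middle range, and its difference did not pass (log2 fold change 0.16, SE 0.08, adjusted p = 0.257, limma). Kif20a shares 29.3% of its exon bases with Cdc23, and the sources used here do not give how reads on shared bases were counted. The other cytokinesis motors Kif23, which bundles the midzone with Racgap1, and Kif14 were at 7.40 ± 0.37 and 1.07 ± 0.18 RPKM in Middle and at 7.24 ± 0.63 and 0.977 ± 0.10 RPKM in Control (SD, n = 3 each). Kif4, the chromokinesin that shortens the midzone, was at 1.84 ± 0.16 RPKM in Middle and 1.66 ± 0.07 in Control. For these 3 genes the libraries of the groups overlapped.

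**Figure D4:**
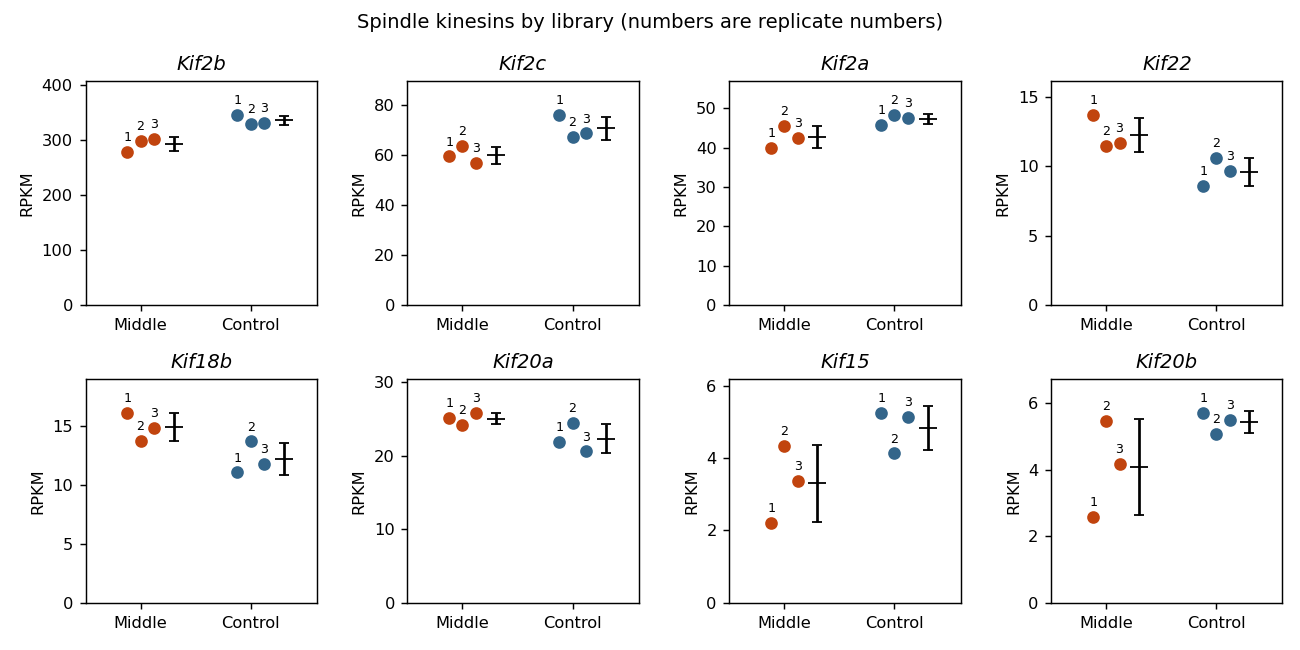
RPKM of 8 spindle kinesins in each library (y axis from 0; points numbered by replicate), with the mean ± SD of 3 libraries as a bar to the right of each group. Kif2b, Kif2c and Kif2a lie lower and Kif22 and Kif18b higher in Middle without overlap, while Kif15 and Kif20b have their lowest value in Middle replicate 1.

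Kif15, Kif20b, Kif18a and Kif11 were lower on average in Middle, and Middle replicate 1 was the lowest library for each. Kif15, a kinesin-12 that backs up the spindle motor Kif11, had 2.21, 4.34 and 3.38 RPKM in Middle and 5.24, 4.13 and 5.12 RPKM in Control. The groups overlapped, and the log2 fold change of -0.46 (SE 0.18) was the lowest of the family (adjusted p = 0.215, limma). Kif20b, a kinesin-6 of late cytokinesis, had 2.59, 5.46 and 4.18 RPKM in Middle and 5.71, 5.09 and 5.51 RPKM in Control. Kif18a, a kinesin-8 that damps chromosome oscillations and is needed for germ cell survival in mice, had 0.567, 0.946 and 0.807 RPKM in Middle and 1.23, 1.02 and 1.03 RPKM in Control. The Kif18a libraries did not overlap (log2 fold change -0.24, SE 0.10, adjusted p = 0.232, limma), and Kif18a passed the 1 RPKM filter only through Control, as Kif14 did only through Middle. Kif11, the kinesin-5 that pushes spindle poles apart, was at 2.998 ± 0.48 RPKM in Middle and 3.23 ± 0.23 in Control (SD, n = 3 each).

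Without Middle replicate 1 these 4 genes moved towards 0. The log2 fold change was then -0.27 for Kif15, -0.15 for Kif20b, -0.16 for Kif18a and 0.0094 for Kif11. The median of the spindle class turned from -0.088 with all libraries to 0.0094, while that of the transport class was -0.0053. The 6 tested kinesins with the lowest transcript GC content, at 38.2% to 42.7%, were Kif18a, Kif2a, Kif20b, Kif5b, Kif11 and Kif15, and all had fold changes below 0. Middle replicate 1 was the lowest of the 6 libraries for 14 of 31 kinesins (45.2%), beside 28.4% of all tested genes.

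Base composition moved with the libraries over the whole table. Transcript GC content and the deviation of a gene in 1 library from its own mean had a rank correlation of 0.45, 0.028 and -0.071 in Middle replicates 1 to 3 and -0.29, -0.22 and -0.25 in Control replicates 1 to 3, over 14003 genes that share libraries and depth. Over the 31 kinesins the rank correlation of GC content with the fold change was 0.46, and over all tested genes with a known GC content it was 0.35. After each library's GC trend was removed it was 0.16 over the kinesins. In that fit 0 kinesins passed, beside 0.0643% of 14003 genes, and 8 had an unadjusted p under 0.05, beside 21.1% (limma). The fold changes then were -0.015 for Kif2a, -0.11 for Kif18a, -0.26 for Kif20b, -0.12 for Kif5b, -0.010 for Kif11 and -0.39 for Kif15. They were -0.21 for Kif2b, -0.25 for Kif2c, 0.32 for Kif22 and 0.21 for Kif18b (adjusted p 0.158 to 0.21 for these 4, limma). All of these genes kept their signs. The part of base composition in the group difference cannot be told apart from exposure, since the groups did not overlap in this correlation.

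**Figure D5:**
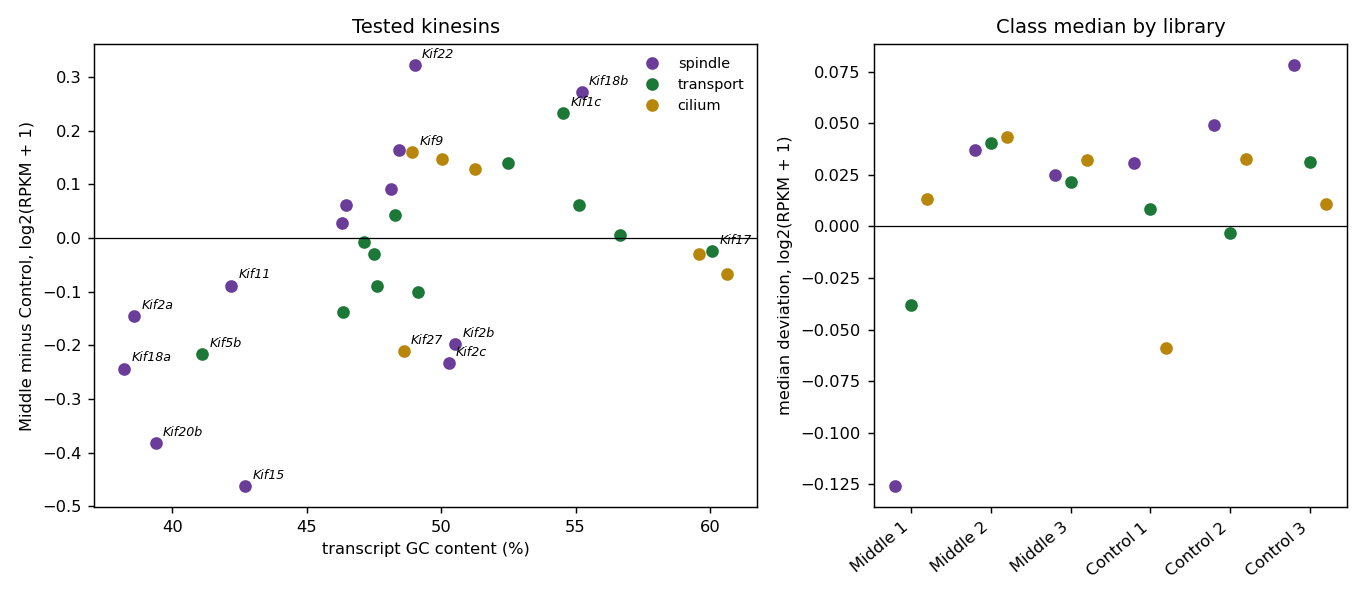
Left, Middle minus Control on the log2(RPKM + 1) scale against transcript GC content in percent for the 31 tested kinesins, coloured by class; right, the median deviation of each class from its mean over the 6 libraries, by library. Members of low GC content lie below 0, and the spindle median of Middle replicate 1 lies at -0.13, the lowest value of the right panel.

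The contrast of spindle with transport kinesins was small and changed sign without 1 library. The spindle median minus the transport median of log2 fold changes was -0.073. The deviation of the spindle class from its mean over the libraries, less that of the transport class, was -0.088, -0.0036 and 0.0031 in Middle replicates 1 to 3 and 0.022, 0.053 and 0.047 in Control replicates 1 to 3. Every Middle library was under every Control library in this measure, Middle replicate 1 by the widest margin. The difference of medians was 0.015 without Middle replicate 1 and 0.029 with the GC trend removed. It was -0.0028 without Kif2a, Kif21a and Kif21b, members whose roles reach beyond their class.

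Transport kinesins at high level differed little between the groups. Kif17 (chromosome 4, 137977746 to 138029278), a kinesin-2 known in mouse spermatids for moving the CREM coactivator Fhl5, had 139.5, 139.8 and 141 RPKM in Middle and 144, 145 and 139 RPKM in Control. Its 95% interval for the log2 fold change was -0.14 to 0.10 around -0.024. With the GC trend removed the fold change of Kif17 was -0.11 (SE 0.06, adjusted p = 0.297, limma). Its cargo gene Fhl5 was at 34.9 ± 3.86 RPKM in Middle and 38.2 ± 2.90 in Control (SD, n = 3 each), and the groups overlapped. Kif5c, a conventional kinesin-1 heavy chain, had 9.04, 8.46 and 7.73 RPKM in Middle and 8.77, 8.26 and 8.75 RPKM in Control. Kif21b and Kif21a, kinesin-4 motors that also restrain microtubule growth, were at 8.26 ± 0.40 and 2.22 ± 0.36 RPKM in Middle and at 8.22 ± 0.22 and 2.23 ± 0.23 RPKM in Control (SD, n = 3 each).

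Heterotrimeric kinesin-2, which drives intraflagellar transport into the growing sperm tail, joins Kif3a, Kif3b and the accessory subunit Kifap3. Kif3b (chromosome 2, 153133333 to 153175310) had 56.6, 72.8 and 63.2 RPKM in Middle and 70.7, 72.0 and 63.2 RPKM in Control, and Kif3a (chromosome 11, 53458206 to 53492794) had 44.7, 50.8 and 49.1 RPKM in Middle and 52.9, 50.3 and 50.7 RPKM in Control. Both overlapped between the groups, with log2 fold changes of -0.10 (SE 0.10) and -0.090 (SE 0.07) and adjusted p-values of 0.561 and 0.439 (limma). Kifap3 had 37.9, 46.0 and 44.7 RPKM in Middle and 52.4, 50.3 and 51.0 RPKM in Control, without overlap, and did not pass (log2 fold change -0.26 with SE 0.08; limma adjusted p = 0.18). The ratio of Kifap3 to Kif3a within a library was 0.848, 0.906 and 0.910 in Middle and 0.990, 0.9998 and 1.01 in Control. The ratio was singled out after its values were seen, and an exact two-sided permutation test of 3 against 3 libraries cannot go below p = 0.1.

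Of the cargo motors of the kinesin-3 family, Kif1c and Kif13a were higher in Middle without overlap, beside 17.9% of all tested genes. Kif1c (chromosome 11, 70591374 to 70622790), which carries vesicles and integrins, had 4.91, 4.56 and 4.32 RPKM in Middle and 3.48, 3.69 and 4.12 RPKM in Control. The groups did not overlap, and Kif1c was the 1 transport member with an unadjusted p under 0.05 (log2 fold change 0.23, SE 0.08, adjusted p = 0.19, limma). Kif13a, which moves recycling endosomes, had 1.27, 1.23 and 1.34 RPKM in Middle and 1.08, 1.02 and 1.12 RPKM in Control, also without overlap (adjusted p = 0.289, limma). Kif1a, Kif1b and Kif16b, motors of synaptic vesicle precursors, mitochondria and early endosomes, overlapped between the groups.

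Kif5b (chromosome 18, 6201002 to 6242174), the ubiquitous kinesin-1 heavy chain, had 1.48, 2.68 and 2.63 RPKM in Middle and 2.72, 2.70 and 2.78 RPKM in Control. Every Middle library was under every Control library, narrowly for replicates 2 and 3 and widely for Middle replicate 1, and the log2 fold change was -0.22 with all libraries and -0.031 without it (adjusted p = 0.41 and 0.833, limma). The remaining transport members Kif3c, Kif13b and Kif5a stayed under 1 RPKM in both groups' means and were not tested. They were at 0.875 ± 0.16, 0.859 ± 0.16 and 0.635 ± 0.036 RPKM in Middle and at 0.884 ± 0.10, 0.777 ± 0.039 and 0.563 ± 0.085 RPKM in Control (SD, n = 3 each). Kif3c shares 40.7% of its exon bases with other genes.

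Cilium kinesins held 2 of the most abundant members of the family, and these differed in opposite directions. Kif9 (chromosome 9, 110306026 to 110354247), a kinesin-9 of the sperm flagellum, had 141, 137 and 148 RPKM in Middle and 126, 131 and 124 RPKM in Control. Every Middle library exceeded every Control library (log2 fold change 0.16, SE 0.06, adjusted p = 0.198, limma). Kif27 (chromosome 13, 58435316 to 58506936), a kinesin-4 relative of Kif7 needed for motile cilia in mice, had 107, 139.7 and 121 RPKM in Middle and 146, 138 and 140.1 RPKM in Control. Its groups overlapped through Middle replicate 2 (log2 fold change -0.21, SE 0.10, adjusted p = 0.256, limma). Without Middle replicate 1, the lowest library for Kif27, the fold change was -0.12 (adjusted p = 0.429, limma). The ratio of Kif9 to Kif27 was 1.32, 0.983 and 1.22 in Middle and 0.861, 0.955 and 0.887 in Control, a ratio chosen after its values were seen.

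The other 4 cilium kinesins lay between 1.44 and 5.18 RPKM in every library. Kif6, the second kinesin-9, had 3.84, 3.74 and 3.89 RPKM in Middle and 3.15, 3.45 and 3.65 RPKM in Control, without overlap (adjusted p = 0.324, limma). Kif24, a kinesin-13 that restrains the growth of primary cilia, had 1.96, 1.82 and 1.89 RPKM in Middle and 1.44, 1.82 and 1.57 RPKM in Control. Neither passed, and Kif24 overlapped between the groups. Kif7, a regulator of Hedgehog signalling at the cilium tip, was at 4.88 ± 0.26 RPKM in Middle and 4.999 ± 0.17 in Control, and Kif19a, which limits cilium length, at 3.84 ± 0.32 in Middle and 4.06 ± 0.063 in Control (SD, n = 3 each). Both overlapped, and Kif7 shares 20.3% of its exon bases with other genes.

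The members in no main class were at low levels. Reads per library ran from 55 to 105 for Kif28, 46 to 96 for Kif26a and 88 to 167 for Kif26b. Kif28, Kif26a and Kif26b were at 0.427 ± 0.18, 0.245 ± 0.036 and 0.154 ± 0.040 RPKM in Middle and at 0.468 ± 0.042, 0.205 ± 0.048 and 0.163 ± 0.028 RPKM in Control (SD, n = 3 each). Kif26a and Kif26b, of the kinesin-11 family, are known as signalling proteins without motor activity. Kif19b had 0, 6 and 7 reads in Middle and 5, 11 and 4 reads in Control, around the limit of 6 reads (3 fragments) that a count of 0 allows. These limits cover counting error only.

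Of 26 partner genes (Aurora and Polo kinases, kinetochore, centralspindlin, condensin and spindle assembly genes among them) all were tested, 21 lay above 0 and 5 below, beside 8412 of 15040 tested genes above 0. Of these partners 0 passed over all genes, and 8 had an unadjusted p under 0.05, beside 20.7% of all tested genes (limma). The median log2 fold change was 0.12, beside 0.027 over all tested genes. For the spindle kinesins it was -0.088 with all libraries and 0.0094 without Middle replicate 1, and the difference between these lists was not tested. The groups did not overlap for 14 of the 26 (53.8%), beside 29.3% of all tested genes.

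The meiotic Aurora kinase gene Aurkc, also on the spermatocyte marker list, had 33.4, 27.2 and 28.5 RPKM in Middle and 21.8, 23.8 and 24.9 RPKM in Control. Plk1, the Polo kinase of mitotic entry, had 63.6, 51.0 and 51.6 RPKM in Middle and 39.6, 47.3 and 43.0 RPKM in Control. Aurka, the Aurora kinase of spindle poles, had 147, 126 and 119 RPKM in Middle and 99.4, 116 and 100.2 RPKM in Control. In each of these 3 genes every Middle library lay above every Control library, with log2 fold changes of 0.32, 0.34 and 0.31 and an adjusted p of 0.178 each (limma). Racgap1, the partner of Kif23 in centralspindlin, was at 9.01 ± 0.39 RPKM in Middle and 7.67 ± 0.35 in Control (SD, n = 3 each).

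The transport partner list held adaptors and cargoes of kinesins, with genes of intraflagellar transport and of the minus-end motor dynein with dynactin. In it the groups did not overlap for 5 of 24 (20.8%), beside 29.3% of all tested genes. Of 24 tested genes out of 25, 16 lay above 0 and 8 below, beside 8412 of 15040 tested genes above 0. Of these 0 passed over all genes, and 4 had an unadjusted p under 0.05, beside 20.7% of all tested genes (limma). Plekhm2, which links lysosomes to kinesin-1, was at 20.2 ± 0.59 RPKM in Middle and 16.4 ± 1.2 in Control, and the kinesin light chain gene Klc2 at 48.7 ± 1.87 in Middle and 42.0 ± 2.98 in Control (SD, n = 3 each). Neither overlapped between the groups, and with Kifap3 these had the smallest p-values of the list. Of the kinesins named outside the rule, the minus-end motor gene Kifc1 was at 3.61 ± 0.19 RPKM in Middle and 3.18 ± 0.22 in Control (SD, n = 3 each; adjusted p = 0.298, limma). Cenpe, which carries chromosomes to the metaphase plate, had 8.23, 17.2 and 12.3 RPKM in Middle and 16.0, 15.8 and 16.9 RPKM in Control, with its lowest value again in Middle replicate 1. Kifc3 was at 14.2 ± 0.48 RPKM in Middle and 15.4 ± 0.54 in Control, and Kifc1 and Kifc5b are near-copies whose reads may be split uncertainly.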

How the data were processed

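RNA-seq libraries of whole testis were compared, 3 Middle and 3 Control. The tool fastp 0.23.0 and the build GRCm39 are listed per the submitters' processing notes. The sources used here do not give the aligner, the read counter or strandedness. The authors deposited RPKM values with gene lengths and exon coordinates, per the file headers.

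Multiplied by gene length, 100% of values were whole multiples of 1 read per library within 0.001, so reads were recovered. Low values were mostly even (74.0% of values from 1 to 20 reads), as when both mates are counted. For a gene of 1 kb, 6 reads came to 0.103 to 0.155 RPKM. Reads were taken as not told apart by strand.

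A gene was kept where either group averaged 1 RPKM or more (15040 kept, 23675 left out). Log2(RPKM + 1) was fitted with limma 3.58.1 (R 4.3.3, trend), two-sided, adjusted by Benjamini-Hochberg over all tested genes, threshold 0.05. Fold changes on this scale understate the change of low genes. The script was tested on simulated reads with the same spread setting for every gene and no GC trend. Such a test does not show how the fit behaves with the GC trends of these libraries. Transcript GC content came from the longest GENCODE M21 transcript of each symbol (89.7% of genes). No coordinates were carried between builds. Libraries of a group differed by more than sampling noise (chi-square of 6.26 to 34.4 for each degree of freedom) and were all counted.

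The members, classes and lists were chosen with earlier results of these data known. The naming rule picked for full values the 4 most abundant members of each class, the 4 with the smallest p and any that passed. It also picked up to 3 genes of each partner list. Of these, Kif7, Kif19a, Kif28, Kif26a, Kif26b and some partner list genes were given as mean ± SD instead. Kif15, Kif20b and Kif18a were given in full though the rule did not pick them. Any other kinesin could be named, and Fhl5, Racgap1 and Kifc5b were named for their role. The windows and the 3 ratios printed were chosen after values were seen. The ratios of Kif3b to Kif3a and of Kif2b to Kif2a were also computed, and the groups overlapped in both. Alternatives were 2 other pseudocounts, no filter, a CPM filter, 2 other scalings, limma-voom, a replicate block, removal of a GC trend (loess, span 0.5), other class membership, means for medians and leaving out each library. Removal of the GC trend without Middle replicate 1 was added after seeing the data.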

Additional observations from a re-analysis of the deposited data

How the results depend on the processing

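No kinesin passed under any alternative run, with a smallest adjusted p of 0.106 (Kif27 without Middle replicate 2) to 0.511. The number of genes called over the whole table was 8; it was 26 with limma-voom, 0 with no filter, 0 with the replicate block and 0 to 3 with 1 library left out. The spindle median ranged from -0.15 to 0.0094 and the spindle minus transport difference from -0.13 to 0.015 with 1 library left out. With the GC trend removed that difference was 0.029, with Middle replicate 1 left out as well 0.043 (spindle median 0.043), and -0.0028 without Kif2a, Kif21a and Kif21b. Among the 19 tested kinesins that the naming rule picked for full values, 3 changed sign: Kif7 (-0.061 to 0.0040 with 1 library left out, positive without Middle replicate 1), Kif5c (-0.078 to 0.022, positive without Middle replicate 3) and Kif5b (0.010 with the GC trend removed and without Middle replicate 1). Of the other 12 tested kinesins, Kif11, Kif16b, Kif1a and Kif21a changed sign without Middle replicate 1 (to 0.0094, 0.032, -0.011 and 0.068), and Kif21b, Kif1a and Kif21a with the GC trend removed (to -0.066, -0.0010 and 0.014). The cause was not tested. Same-numbered libraries deviated with correlations of -0.15, -0.12 and 0.0054, so the numbers were not taken as pairs. With the block the smallest adjusted p of a kinesin was 0.317 (Kif2c, limma), against 0.178 without it (Kif2b, limma). Genes under 1 RPKM may be limited by depth where reads are few, as for Kif19b.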
